A study of Mus musculus with 30 samples.

Results

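Primary cultures of mouse brain endothelial cells (ECs, the cells that line blood vessels) were grown in 3 separate experiments under the name wild type (WT), and the transcripts that differed among those experiments are described here. The members are the 6 WT cultured RNA-seq libraries among the 30 samples of the series, chosen by their titles and grouped by replicate number into experiment 1 (replicates 1 and 2), experiment 2 (replicates 3 and 4) and experiment 3 (replicates 5 and 6). Each experiment contributed 2 wells, and a replicate is a well, so every test measures the spread between wells and not that between preparations, animals or days. Only protein-coding genes on autosomes were compared, 20752 in all, of which 12607 passed a filter on low counts and were tested.

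All 6 libraries came from adult male mouse brains, from cells kept for 8 days in EC growth medium after puromycin selection, which spares cells that carry the efflux pump P-glycoprotein. By the study's Methods, experiment 1 used C57BL/6J mice and method A, a papain digestion with puromycin added the evening after plating. Experiments 2 and 3 used Ctnnb1flex3/+;Tie2-GFP mice and method B, Dounce homogenisation followed by collagenase and dispase, with puromycin present from plating. A figure legend of the study differs: it gives method B to the 2 WT culture libraries made at the other facility and method A to the 4 others, which would place experiment 3 under method A. The Methods were followed here. Whether experiments 1 and 3 differ in isolation method, and whether experiments 2 and 3 share it, is uncertain in every value of those pairs. The Methods tie the genotype of the control mice to the method, so genotype in both pairs is uncertain too. The Ctnnb1flex3/+;Tie2-GFP mice carry 1 floxed allele of beta-catenin, without a Cre driver, and a GFP transgene under the endothelial Tie2 promoter, and had received 4-hydroxytamoxifen as pups, while the study's text can be read either way for the C57BL/6J mice. Experiments 1 and 3 were read for 36 cycles. Experiment 2 was made into libraries and read for 150 cycles at another facility. Experiment 3 thus differed from experiment 1 in preparation and, by the Methods, in isolation method and genotype, and possibly in 4-hydroxytamoxifen. Experiment 2 differed from experiment 3 in preparation, library making and read length, and by the legend also in isolation method. Within each pair these cannot be told apart. Brains of several mice were pooled for a preparation. A further 4 libraries of beta-catenin stabilized ECs, Ctnnb1flex3/+;Pdgfb-CreER;Tie2-GFP, served as a comparison. Their Cre is driven by the Pdgfb promoter of ECs and induced by 4-hydroxytamoxifen, which these mice had also received as pups. Method A gave their replicates 1 and 2 and method B their replicates 3 and 4, with the same genotype and 36 cycles throughout.

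Brain ECs form the blood-brain barrier (BBB) through tight junctions, transporters and a low rate of vesicular transport. Outside the brain they lose part of this program. Shear stress, Notch ligands, growth factors, cell density and attachment to a stiff surface all act on ECs, through transcription factors such as KLF2 and KLF4, the Notch target HEY1, AP-1 (dimers of FOS and JUN proteins), SRF with its cofactors, YAP and TEAD, and interferon-responsive factors such as STAT2 and IRF9.

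Total estimated counts ran from 24284843 to 65623544 per WT culture library. Levels are given below as TPM (a relative abundance that divides each count by effective transcript length), rescaled so that autosomal protein-coding genes sum to the same total in each library, because these genes made up 33.5% and 43.3% of the deposited TPM in experiment 1, 89.5% and 89.2% in experiment 2 and 37.7% and 40.3% in experiment 3. The 7SL RNA gene Rn7s1 alone held 7.14% to 7.99% of the counts in experiments 1 and 3 and 0.0496% to 0.0555% in experiment 2. A gene was called where its log2 fold change exceeded 1 in size, edgeR's quasi-likelihood test gave p under 0.05 after Benjamini-Hochberg adjustment, and its deposited TPM was 5 or more in both wells of the higher experiment. That minimum equals 11.5 to 14.9 rescaled TPM in experiments 1 and 3 and 5.59 to 5.61 in experiment 2, so that it was easier to reach in experiment 2. Log2 fold changes are from counts scaled by TMM, with standard errors, and can differ from the ratio of TPM values because TPM also divides by transcript length.

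Wells of 1 experiment were alike and experiments were not. Pearson's r across genes on log2(TPM + 1), a description over 20752 genes that are not independent, was 0.996 to 0.998 between wells of 1 experiment. It was 0.960 to 0.967 between experiments 1 and 3, 0.946 to 0.952 between experiments 2 and 3 and 0.940 to 0.943 between experiments 1 and 2. The median standard deviation of a gene on log2 CPM was 0.126 between wells and 0.629 between the 3 experiment means, a ratio of 4.99. The means of the highest and lowest experiment lay more than 2-fold apart for 59.4% of the genes and more than 8-fold apart for 9.57%. Split by abundance into 4 equal bins, genes of the lowest bin had medians of 0.301 (wells) and 0.949 (experiments) and those of the highest bin 0.0917 and 0.525. By the F test over all 3 experiments, 11311 of 12607 genes (89.7%) differed at an adjusted p under 0.05. The test sets the experiments against the spread of wells, so the calls below add the fold and TPM limits.

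**Figure D1:**
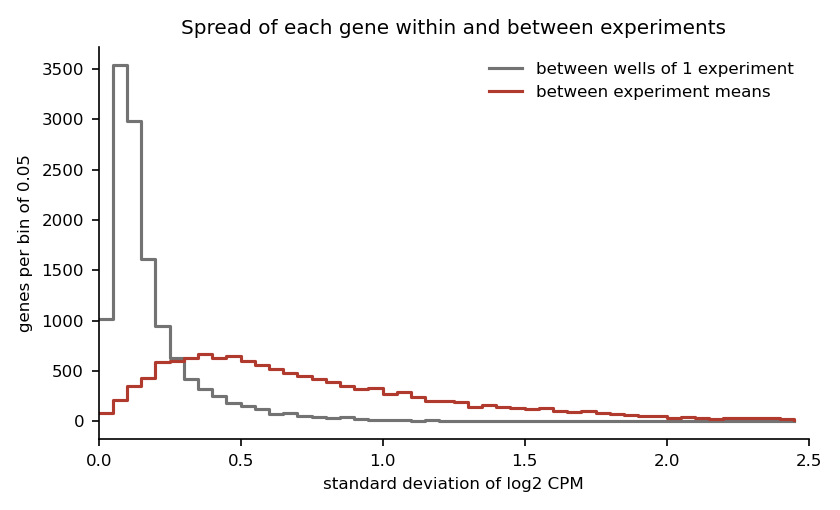
Number of tested autosomal genes (vertical axis, per bin of 0.05) by the standard deviation of log2 CPM (horizontal axis), for the pooled spread of the wells within an experiment (grey) and for the spread of the 3 experiment means (red). The median was 0.126 for wells and 0.629 for experiment means; values above 2.5 are not drawn.

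Between experiments 3 and 1, the main pair, 1117 genes (8.86% of those tested) were called higher in experiment 3 and 738 (5.85%) lower. With library size in place of TMM scaling the counts were 765 higher and 1082 lower, so the share of higher calls went from 60.2% to 41.4% and the median of all genes from 0.06 to -0.19 on the log2 scale. Experiment 2 against experiment 1 gave 1757 genes higher (13.9%) and 1333 lower (10.6%). Experiment 2 against experiment 3 gave 1278 genes higher (10.1%) and 1417 lower (11.2%), and with library size scaling 1842 and 1133, a share of higher calls of 61.9% in place of 47.4%. These 3 comparisons share libraries, and their values are given side by side. The shares of all tested genes given here are the background for every list count below. A list count near them is not a result about that list.

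More genes of endothelial identity were lower than higher in experiments 2 and 3 against experiment 1. Of 22 core endothelial genes, all tested, 10 were called lower and 2 higher in experiment 3 against experiment 1, with a median log2 fold change of -0.83 against 0.06 over all genes; in experiment 2 against 1 it was 9 lower and 2 higher. Pecam1, the junctional adhesion receptor CD31 by which ECs are usually stained, stood at 1985 and 2153 TPM in the wells of experiment 1, 628 and 574 in experiment 2 and 566 and 580 in experiment 3. It was lower in both later experiments, by -1.58 ± 0.09 (adjusted p = 2.89e-07) in experiment 3 and -1.70 ± 0.09 in experiment 2. Mmrn2, a matrix protein of vessels, fell from 515 and 553 TPM to 62.6 and 66.2 in experiment 3 (-2.76 ± 0.09) and to 79.6 and 70.6 in experiment 2. Cd34, a sialomucin of vascular and blood stem cells, had 1232 and 1146 TPM in experiment 1, 497 and 483 in experiment 2 and 131 and 145 in experiment 3 (-2.63 ± 0.10). For Cd34 the experiments were thus ordered 1, 2 and 3 with no overlap, whereas for Pecam1 experiments 2 and 3 did not differ past the fold limit (-0.11 ± 0.09).

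Nos3, the endothelial nitric oxide synthase, was at 124 and 136 TPM in experiment 1 and 120 and 113 in experiment 2, which was not a call, and at 29.0 and 26.4 TPM in experiment 3 (-2.08 ± 0.09 for experiment 3 against 1). Eng, a TGF-beta co-receptor, went the other way, from 182 and 262 TPM in experiment 1 to 451 and 382 in experiment 2 and 994 and 817 in experiment 3 (2.14 ± 0.16). Sox17, an endothelial transcription factor, was also called higher in experiment 3 (1.09 ± 0.11), at 157 and 117, 547 and 483, and 308 and 333 TPM. Its relative Sox18 was highest in experiment 2, at 654 and 639 TPM against 223 and 247 in experiment 1 and 60.4 in both wells of experiment 3. Cdh5, the VE-cadherin of adherens junctions, was not called between experiments 3 and 1 (0.87 ± 0.12) and was called lower in experiment 2, with 407 and 513 TPM in experiment 1, 254 and 212 in experiment 2 and 782 and 696 in experiment 3. Every core gene had counts in all 6 wells, and the summed level of the list ran from 16425 to 16774 TPM in experiment 1, 8149 to 8516 in experiment 2 and 8242 to 8375 in experiment 3.

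**Figure D2:**
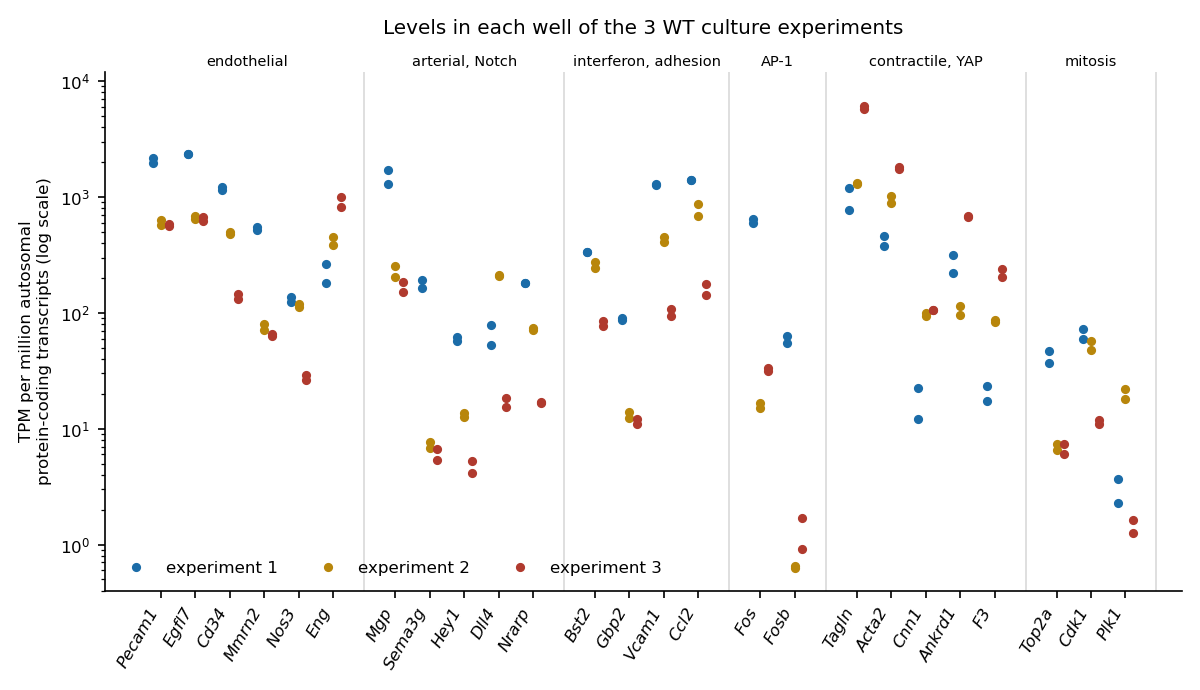
Rescaled TPM (vertical axis, log scale) of 25 genes, all but Egfl7 named in the text, in each of the 6 WT culture libraries. There is 1 point per well, coloured by experiment, and genes are grouped by role. Wells of 1 experiment lie close together, while Pecam1, Sema3g, Hey1 and Fos are highest in experiment 1, Dll4 and Plk1 in experiment 2, and Tagln, Acta2 and F3 in experiment 3.

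Most arterial genes and a part of the Notch genes were called lower in experiment 3. Notch receptors on ECs bind ligands such as DLL4 and JAG2 on a neighbouring cell and switch on HEY and HES repressors, a pathway known for arterial fate. Of 11 arterial genes tested, 8 were called lower and 1 higher in experiment 3 against 1 (median -2.34). Of 11 Notch genes 5 were called lower and none higher (median -1.36). Hey1, Dll4 and Jag1 are in both lists. Sema3g, a semaphorin of arterial ECs, had 164 and 191 TPM in experiment 1, 6.87 and 7.74 in experiment 2 and 5.41 and 6.65 in experiment 3 (-4.72 ± 0.15). Mgp, an inhibitor of BMP signaling and of calcification, had 1301 and 1714, 203 and 254, and 152 and 184 TPM (-3.04 ± 0.16). Both were highest in both wells of experiment 1, and neither differed past the fold limit between experiments 2 and 3.

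The Notch target Hey1 was at 56.7 and 62.4 TPM in experiment 1, 13.7 and 12.7 in experiment 2 and 5.22 and 4.19 in experiment 3 (-3.45 ± 0.14). Nrarp, a target that dampens Notch signaling, followed the same order at 180 and 181, 71.1 and 73.8, and 16.6 and 17.1 TPM (-3.24 ± 0.11). Dll4, an endothelial Notch ligand, did not: it stood at 52.9 and 78.7 TPM in experiment 1, 214 and 206 in experiment 2 and 18.3 and 15.3 in experiment 3. In experiment 2 Dll4 was therefore higher than in experiment 1 (1.56 ± 0.16) while Hey1 and Nrarp were lower there (-2.16 ± 0.13 and -1.17 ± 0.10). The arterial member called higher in experiment 3 was Efnb2, an ephrin ligand, at 20.8 and 34.8, 67.9 and 57.9, and 77.2 and 64.4 TPM (1.55 ± 0.18). The Notch1 receptor was not called between experiments 3 and 1 (0.84 ± 0.13).

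Of 8 genes that laminar flow induces 3 were called lower and none higher in experiment 3 against 1 (median -0.90). Klf2, a transcription factor of flow, was not called in any pair of WT experiments, at 88.7 and 100 TPM in experiment 1, 75.1 and 71.6 in experiment 2 and 75.5 and 63.6 in experiment 3.

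Venous and tip-cell genes were mixed. Of 9 venous genes 5 were called lower and 2 higher in experiment 3 against 1, and of 11 tip-cell or fenestrated-vessel genes 5 lower and 2 higher. Nr2f2, the transcription factor of venous identity, was low in all cultures, with 3.65 and 4.41 TPM in experiment 1, 5.85 and 9.15 in experiment 2 and 17.7 and 12.4 in experiment 3 (2.25 ± 0.20). Esm1 and Cxcr4, genes of sprouting tip cells, were lower in experiment 3 by -2.36 ± 0.12 and -2.41 ± 0.15. They parted in experiment 2, where Cxcr4 stood at 65.1 and 65.0 TPM against 95.9 and 111 in experiment 1, and Esm1 at 13.3 and 14.0 TPM against 93.1 and 107.

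Among interferon-stimulated genes and genes of antigen presentation, the calls in experiment 3 against 1 were all lower. Type I interferon acts through a complex that holds STAT2 and IRF9 on a DNA element, the ISRE, before genes that restrict viruses. Of 20 interferon-stimulated genes tested, 9 were called lower and none higher in experiment 3 against 1 (median -1.84), and with the TPM minimum set on rescaled TPM 14 were called lower. Of the 17 that share less than 25% of their 31-base sequence words with other genes, 6 were called lower. Gbp2, a guanylate-binding protein, had 90.4 and 87.1 TPM in experiment 1, 14.1 and 12.5 in experiment 2 and 11.0 and 12.2 in experiment 3 (-2.58 ± 0.10). Gbp3 of the same family had 30.6 and 34.4, 12.2 and 13.3, and 4.35 TPM in both wells of experiment 3 (-2.56 ± 0.14). Bst2, or tetherin, which holds budding virions, had 333 and 335, 245 and 277, and 76.4 and 84.9 TPM (-1.82 ± 0.12). The list was not uniform in experiment 2, where Gbp2 was as low as in experiment 3 (0.02 ± 0.10) and Bst2 was within the fold limit of experiment 1 (-0.40 ± 0.11). Isg15, a ubiquitin-like modifier, was not called between experiments 3 and 1 (0.08 ± 0.37) and was highest in experiment 2, at 9.94 and 14.2 TPM.

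The 250 bases before the start of the called genes Gbp2, Gbp3 and Bst2 are printed because these members of 1 list moved together between experiments 3 and 1, and because the ISRE letters, GAAA then any 2 bases then GAAA, searched on both strands, lie in each window (capitals, overlapping copies joined). The windows are from RefSeq on GRCm38.p6, each read on the strand of its gene: Gbp2 from chr3:142620413-142620662 (plus strand), Gbp3 from chr3:142559794-142560043 (plus strand, 1 of 2 windows listed for the gene) and Bst2 from chr8:71537473-71537722 (minus strand).
Gbp2: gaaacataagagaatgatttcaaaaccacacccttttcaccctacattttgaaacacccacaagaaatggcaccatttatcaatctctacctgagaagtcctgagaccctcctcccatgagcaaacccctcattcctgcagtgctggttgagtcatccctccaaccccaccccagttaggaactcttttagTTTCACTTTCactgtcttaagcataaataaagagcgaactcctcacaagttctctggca
Gbp3: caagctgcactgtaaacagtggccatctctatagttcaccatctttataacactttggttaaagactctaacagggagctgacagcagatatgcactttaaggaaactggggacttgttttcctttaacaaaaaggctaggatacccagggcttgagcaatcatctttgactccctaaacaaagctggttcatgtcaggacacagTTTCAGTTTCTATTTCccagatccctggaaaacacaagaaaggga
Bst2: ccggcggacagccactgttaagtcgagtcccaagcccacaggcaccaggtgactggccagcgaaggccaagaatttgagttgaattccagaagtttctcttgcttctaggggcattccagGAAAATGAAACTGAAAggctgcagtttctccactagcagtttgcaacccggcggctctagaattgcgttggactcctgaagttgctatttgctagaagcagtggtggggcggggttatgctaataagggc

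Of the 20 tested members 16 had a window in the table, and 10 of these 16 held the letters, against 936 of 27025 genes (3.46%) with a window. The match is a description of the letters in the window and not a bound site. It did not separate the members that moved from those that did not: Isg15 and Stat2 hold the letters and were not called, and Irf9 and Ifih1 do not hold them and were called lower.

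Genes of antigen presentation had the same direction. Of 9 MHC class I genes 3 were called lower and none higher in experiment 3, and all 9 fold changes were below 0. H2-K1, a classical class I heavy chain that shares 24.8% of its sequence words with other genes, had 866 and 1017 TPM in experiment 1, 389 and 392 in experiment 2 and 355 and 364 in experiment 3 (-1.73 ± 0.10). Psmb8 and Psmb9, subunits of the immunoproteasome, were lower in experiment 3 (-1.50 ± 0.11 and -1.57 ± 0.15) and close to experiment 1 in experiment 2 (-0.09 ± 0.11 and -0.11 ± 0.14).

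Of 19 genes of inflammation and leukocyte adhesion, 6 were called lower and 2 higher in experiment 3 against 1 (median -1.15). Vcam1, which holds leukocytes on activated ECs, had 1261 and 1306 TPM in experiment 1, 410 and 451 in experiment 2 and 94.3 and 108 in experiment 3 (-3.39 ± 0.13). Ccl2, a monocyte chemokine, had 1415 and 1410, 687 and 864, and 142 and 176 TPM (-3.01 ± 0.15). Cxcl1, a neutrophil chemokine, had 252 and 265, 5.48 and 6.38, and 20.6 and 25.6 TPM (-3.40 ± 0.14). Ccl2 and Cxcl1 ordered experiments 2 and 3 in opposite ways, and both calls passed for experiment 2 against 3 (2.78 ± 0.15 and -1.22 ± 0.16). The members called higher in experiment 3 were Ptgs2, the inducible cyclooxygenase, at 446 and 385, 146 and 121, and 1385 and 1344 TPM (1.81 ± 0.12), and Tnfaip3, a feedback inhibitor of NF-kappaB, at 13.5 and 15.1, 7.78 and 7.41, and 42.6 and 35.9 TPM (1.52 ± 0.10).

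Among 18 immediate early genes, 5 were called lower and 4 higher in experiment 3 against 1, and the AP-1 subunits were split. Fos was at 651 and 599 TPM in experiment 1, 16.6 and 15.1 in experiment 2 and 33.5 and 31.6 in experiment 3 (-3.98 ± 0.10, adjusted p = 2.17e-09). Fosb (GRCm38 chr7:19302696-19310051, minus strand) was at 55.4 and 62.9, 0.647 and 0.631, and 1.71 and 0.922 TPM (-5.59 ± 0.15). Both were high in experiment 1 alone. The partners Atf3 and Junb were also lower in experiment 3 (-1.88 ± 0.10 and -1.40 ± 0.09), while Jun was not called in any pair (0.28 ± 0.10 for experiment 3 against 1). Fosl1, a FOS relative of growing and migrating cells, rose from 7.80 and 7.29 TPM to 31.3 and 24.7 in experiment 2 and 25.2 and 19.9 in experiment 3 (2.04 ± 0.14). Myc, a growth regulator, did likewise, from 8.41 and 10.5 TPM to 42.5 and 36.7 and to 29.9 and 26.9 (2.01 ± 0.13).

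Contractile genes, 5 of 9, were called higher in experiment 3. Actin, its binding proteins and calponin are transcribed through SRF and are the usual markers of smooth muscle, and stressed or spreading ECs can make them too. None of the 9 in the smooth muscle list was called lower, 8 of the 9 fold changes were above 0, and the median log2 fold change was 2.18. With the TPM minimum set on rescaled TPM, 7 were called higher. Tagln, the actin-binding protein SM22, had 1193 and 766 TPM in experiment 1, 1316 and 1291 in experiment 2 and 6152 and 5760 in experiment 3 (2.81 ± 0.16, adjusted p = 2.70e-07). Acta2, smooth muscle actin, had 459 and 377, 1016 and 884, and 1810 and 1731 TPM (2.46 ± 0.11). Cnn1, calponin, had 22.3 and 12.2, 100 and 93.3, and 106 TPM in both wells of experiment 3 (2.85 ± 0.16). All wells of experiment 3 lay above all wells of experiment 1 for these 3 genes. Of markers of the mature smooth muscle cell, Myh11 was between 0.563 and 8.24 TPM over the 6 wells. It was not called in experiment 3 against 1 (log2 fold change 1.78), where it stayed under the TPM minimum. Lmod1 was between 2.08 and 16.5 TPM and called higher in experiment 3 (1.75 ± 0.21).

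The pericyte list (11 genes, 10 tested) had no call, or 4 higher with the minimum on rescaled TPM, and its summed level was 19.8 and 24.5 TPM in experiment 1, 8.8 and 8.6 in experiment 2 and 48.7 and 46.3 in experiment 3. Its main members in experiment 3 were Pdgfrb (10.9 and 10.0 TPM) and Cspg4 (13.8 and 11.5), with log2 fold changes of 1.19 ± 0.11 and 1.44 ± 0.10, while Rgs5, a marker of brain pericytes, was at 1.30 and 1.76 TPM and overlapped experiment 1 (1.59 and 3.15). The summed level of the 12 fibroblast genes went down, from 75.1 and 93.2 TPM in experiment 1 to 38.8 and 26.0 in experiment 3, and 2 of 10 tested members, Col1a2 and Col3a1, were called lower. Over the 6 wells the summed level was 2.82 to 12.1 TPM for 14 microglia and macrophage markers. It was 16.4 to 41.7 TPM for 9 oligodendrocyte markers, with Cnp as the main member. Neither list had a call in experiment 3 against 1. In experiment 2, 1 microglia and macrophage marker was called higher against experiment 1 and 1 against experiment 3. For oligodendrocyte markers 1 was called higher in experiment 2 against 3. Trem2 of the first list and Mog and Olig2 of the second had no count in any well. The 9 astrocyte markers summed to 13.1 to 51.7 TPM, and 1 of 4 tested was called higher in experiment 3, Gja1, the connexin 43 that ECs also make (1.77 ± 0.21), while Aqp4 was at most 0.0163 TPM. Of 9 neuron markers 3 were tested. Tubb3, a tubulin, was called lower in experiment 3 (-6.37 ± 0.18, from 32.6 and 31.2 to 0.329 and 0.292 TPM). Stmn2, a microtubule regulator, was called higher (1.78 ± 0.13, from 6.87 and 7.33 to 21.9 and 18.4 TPM). The third tested marker was not called, and 2 of the 3 fold changes were above 0 (median 1.78). Snap25, another member of the list, was at most 0.0529 TPM in any well. The part of other cells in the contractile results was not tested, and in bulk RNA fewer cells of a kind and less RNA per cell cannot be told apart.

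Of 14 targets of YAP and TEAD, which respond to spreading and stiffness, 7 were called higher and none lower in experiment 3 against 1 (median 0.98). F3, tissue factor, had 23.2 and 17.4 TPM in experiment 1, 86.6 and 82.9 in experiment 2 and 238 and 204 in experiment 3 (3.77 ± 0.15). Ccn2, a secreted matrix protein and standard YAP target, had 2839 and 2759, 5039 and 4538, and 7349 and 6841 TPM (1.65 ± 0.10). Ankrd1, a nuclear ankyrin repeat protein, had 317 and 220, 114 and 96.2, and 680 and 677 TPM (1.62 ± 0.14). F3 and Ccn2 were thus lowest in experiment 1 and Ankrd1 lowest in experiment 2, and against experiment 1 experiment 2 had 4 members higher and 4 lower. The TEAD letters GGAATG were found on either strand in the 250-base window of 7 of 11 members with a window, against 14.4% of all genes. The CArG box of SRF was searched only as CC, then 6 bases of A or T, then GG. That strict form lay in none of 6 smooth muscle members with a window, against 1.62% of all genes. Forms 1 base off were not counted, and the Acta2 window holds such forms, among them CCCTATATGG and CCTTGTTTGG. The search thus cannot tell whether these windows lack an SRF element. F3 has no TEAD match in its window and Ankrd1 has 2. The TEAD letters did not separate the members that moved from those that did not. Ccn1 and Ajuba hold them and were not called, and F3 and Tgfb2 do not hold them and were called higher. The list is made of known TEAD targets, so its share against all genes is not a result about experiment 3.

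Of 13 genes of mesenchymal transition 5 were called higher and none lower in experiment 3 (median 1.41), and 3 of the 5 were the contractile genes above. Fn1, fibronectin, had 1341 and 1549 TPM in experiment 1, 1097 and 876 in experiment 2 and 2952 and 1685 in experiment 3 (1.41 ± 0.19). Snai2, a repressor of epithelial junction genes, was low, at 0.709 and 1.35, 9.21 and 8.86, and 6.41 and 5.11 TPM. Against experiment 1 it was called higher in experiment 2 (3.82 ± 0.25) and not in experiment 3, which stayed under the TPM minimum. In the TGF-beta and BMP list (17 genes) 3 were called higher and 4 lower in experiment 3 against 1, against 8.86% and 5.85% of all tested genes. The ligands Inhba and Tgfb3 were higher (2.47 ± 0.15 and 2.40 ± 0.15) and the BMP targets Id2, Id3 and Smad6 lower (-1.53 ± 0.12, -1.36 ± 0.12 and -1.46 ± 0.12).

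Plat, the tissue plasminogen activator, had 283 and 276 TPM in experiment 1, 28.7 and 32.2 in experiment 2 and 8.19 and 8.56 in experiment 3 (-4.74 ± 0.12 for experiment 3 against 1). The experiments were thus ordered 1, 2 and 3 with no overlap.

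Mitosis genes were lower in experiment 3 than in experiment 1. Of 20 mitosis genes 6 were called lower and none higher in experiment 3 against 1 (median -2.16, all 20 below 0), and with the minimum on rescaled TPM 16 were called lower. Against experiment 3, experiment 2 had 11 mitosis genes higher and none lower. Cdk1, the mitotic kinase, had 59.4 and 72.0 TPM in experiment 1, 47.9 and 57.5 in experiment 2 and 11.0 and 11.8 in experiment 3 (-2.24 ± 0.16). Top2a, which untangles chromosomes, had 36.6 and 47.1, 6.53 and 7.37, and 7.32 and 6.04 TPM (-2.43 ± 0.11). Plk1, a kinase of mitotic entry, was highest in experiment 2, at 17.9 and 22.1 TPM against 2.27 and 3.69 in experiment 1 and 1.64 and 1.26 in experiment 3. Experiment 2 was therefore near experiment 1 for Cdk1, near experiment 3 for Top2a and above both for Plk1. Of 20 DNA replication genes 4 were called lower in experiment 3 against 1 and 10 higher in experiment 2 against 3.

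Cdkn1a, the p21 inhibitor of cyclin-dependent kinases, was lowest in experiment 1, at 73.7 and 84.4 TPM against 1651 and 1522 in experiment 2 and 629 and 550 in experiment 3 (3.15 ± 0.12 for experiment 3 against 1, adjusted p = 2.37e-08). Cdkn2b, the p15 inhibitor, ran the other way, at 92.7 and 89.4, 41.7 and 44.2, and 9.32 and 12.0 TPM (-2.84 ± 0.14). Pmaip1, the pro-apoptotic NOXA, rose in experiment 3 from 30.8 and 23.0 to 619 and 644 TPM (4.53 ± 0.20), with 61.3 and 50.8 in experiment 2. Of 13 p53 targets and inhibitors tested, 1 was called higher and 3 lower in experiment 3 against 1. Over all tested genes 8.86% were called higher and 5.85% lower. Pmaip1 is not in that list and was chosen after its values were seen.

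Of 19 genes of glycolysis and hypoxia 6 were called higher and none lower in experiment 3 against 1 (median 0.81). Over all tested genes the shares were 8.86% higher and 5.85% lower. In experiment 2 against 1, 3 were called higher and 1 lower, against 13.9% and 10.6% of all tested genes. Ldha, lactate dehydrogenase, had 1025 and 944 TPM in experiment 1, 2392 and 2393 in experiment 2 and 2756 and 2776 in experiment 3 (1.79 ± 0.10). Eno1, the glycolytic enolase, shares 29.7% of its sequence words with other genes. Its sum with the copy Eno1b was 373 and 402, 2738 and 2476, and 2921 and 2734 TPM. Vegfa, the vascular growth factor, rose only in experiment 3, from 8.14 and 8.12 to 21.8 and 20.6 TPM (1.56 ± 0.12), with 9.49 and 9.89 in experiment 2.

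Barrier genes moved in both directions. Of 19 BBB transporters and regulators 4 were called higher and 3 lower in experiment 3 against 1. Slco1a4, an organic anion transporter, had 179 and 210 TPM in experiment 1, 26.4 and 21.8 in experiment 2 and 16.7 and 21.3 in experiment 3 (-3.13 ± 0.13). Abcg2, an efflux pump, had 831 and 920, 400 and 397, and 230 and 286 TPM (-1.60 ± 0.10). Slc7a1, the cationic amino acid carrier, was opposite, at 15.8 and 17.1, 42.8 and 36.3, and 126 and 80.7 TPM (3.39 ± 0.16), and Slc7a5, the large neutral amino acid carrier, was high in experiment 2 alone (367 and 306 TPM against 46.2 to 46.7 elsewhere). The glucose transporter Slc2a1 was within the fold limit in all pairs, at 628 and 561, 755 and 725, and 966 and 992 TPM. Cldn5, the main claudin of the tight junction, had 1317 and 1286, 826 and 868, and 244 and 293 TPM (-2.08 ± 0.12), and Ocln, occludin, 200 and 184, 105 and 104, and 44.8 and 54.0 TPM (-1.69 ± 0.11). Tjp1, the scaffold ZO-1, was not called in any pair (0.74 ± 0.13 for experiment 3 against 1).

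P-glycoprotein, on which the puromycin selection relies, is made in mice from Abcb1a and Abcb1b, which share 22.9% and 15.8% of their sequence words with other genes. Abcb1a had 136 and 161 TPM in experiment 1, 33.3 and 27.4 in experiment 2 and 101 and 104 in experiment 3, and Abcb1b had 188 and 187, 39.8 and 42.3, and 85.7 and 96.4 TPM. Neither was called between experiments 3 and 1 (-0.37 ± 0.11 and -0.84 ± 0.09), and both were lower in experiment 2 than in experiment 1 (-2.22 ± 0.11 and -1.55 ± 0.09). Ctnnb1, the gene with a floxed allele in experiments 2 and 3 by the Methods, had 1790 and 1725, 447 and 401, and 609 and 675 TPM. It was called lower in experiment 2 (-1.09 ± 0.09) and missed the fold limit in experiment 3 (-0.88 ± 0.09), where an offset for effective length gave -1.33 and library size scaling -1.13, both past it. Tek, whose promoter drives the Tie2-GFP transgene and which encodes an angiopoietin receptor, had 89.2 and 98.6, 40.2 and 38.6, and 22.4 and 21.7 TPM (-1.90 ± 0.09 for experiment 3 against 1). Nnt, which is partly deleted in C57BL/6J mice, shares 100% of its sequence words with another gene and gave no check of the strain. Among 9 beta-catenin targets tested 3 were called higher in experiment 3 (Lef1, Apcdd1 and Sp5), and Axin2 was near 0 in all, at 0.236 to 0.641 TPM.

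The study's own lists, which were chosen partly on acutely isolated libraries of this series and are not independent of it, moved in both directions. Of 148 pan-EC transcripts 44 were called lower and 11 higher in experiment 3 against 1 (median -0.40). Of 258 BBB transcripts 43 were called lower and 31 higher (median -0.17).

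**Figure D3:**
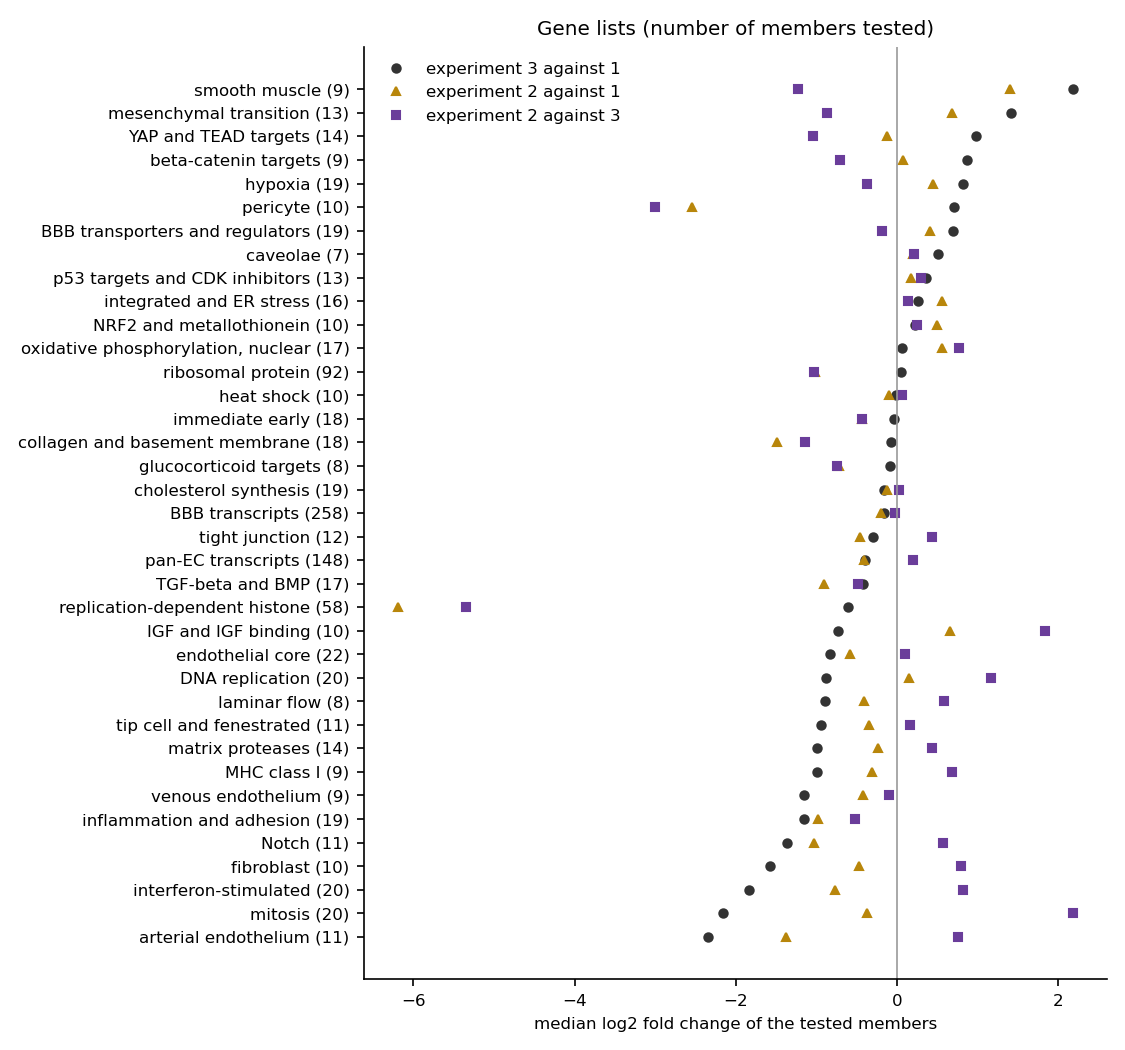
Median log2 fold change (horizontal axis) of the tested members of each gene list with at least 7 tested members, for experiment 3 against 1 (circles), 2 against 1 (triangles) and 2 against 3 (squares); the number tested is in parentheses. Arterial, mitosis and interferon lists lie lowest for experiment 3 against 1 and the smooth muscle list highest, and histone genes stand apart in both comparisons with experiment 2.

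The genes with the largest fold changes were partly copies that short reads cannot separate. Of the 12 genes with the largest increase and the 12 with the largest decrease in experiment 3 against 1, 9 and 5 share at least 25% of their 31-base words with another gene, against 6.88% of all tested genes, and their values are uncertain. Tpm3-rs7 went from 3.22 and 3.87 TPM in experiment 1 to 483 and 506 in experiment 3 (7.40 ± 0.18), while its sum with Tpm3 was 996 and 880 TPM in experiment 1 and 903 and 972 in experiment 3, which overlap. Rps27 differed between the wells of experiment 3 themselves, at 3012 and 20.1 TPM. The genes named next share less than that, and Rasl11b, Tcf20, Dst, Ahnak, Hist1h1a and Rarres1 among those named here and below were chosen after their values were seen.

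Nptx2, a neuronal pentraxin (GRCm38 chr5:144545902-144557478, plus strand), was at 0.581 and 0.327 TPM in experiment 1, 11.1 and 7.49 in experiment 2 and 27.3 and 27.0 in experiment 3 (6.27 ± 0.25). Mmp13, a collagenase, had 0.832 and 0.274, 5.6 and 4.87, and 23.1 and 22.5 TPM (5.75 ± 0.26). Sema3d, a secreted semaphorin, had 2.29 and 1.70, 5.16 and 3.87, and 66.9 and 56.5 TPM (5.07 ± 0.15). Phlda1, S100a7a, Slco4a1 and Rasl11b were likewise low in experiment 1 and higher in both later experiments. Sema3d, Aldh1a1 (a retinal dehydrogenase) and Sytl2 rose past the limits in experiment 3 and not in experiment 2. Against experiment 1, Sema3d was past the fold limit in experiment 2 (1.81 ± 0.15) and missed the TPM minimum. Aldh1a1 (0.82 ± 0.18) and Sytl2 (0.35 ± 0.19) were within the fold limit there. Among genes lower in experiment 3, Gpihbp1, which carries lipoprotein lipase to the capillary lumen, had 32.5 and 37.6, 15 and 15.7, and 0.410 and 0.355 TPM (-6.44 ± 0.23). Ednrb, an endothelin receptor, had 62.5 and 69.9, 11.8 and 11.2, and 1.07 and 1.10 TPM (-5.81 ± 0.12). Trim12a, Nxpe4, C1qtnf9, Clec1a, Ushbp1 and Wfdc1 had the same order, with experiment 2 between experiments 1 and 3.

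In experiment 2 the fold changes also varied with transcript length. Genes with an effective length over 8000 bases (255 tested) had a median log2 fold change of -1.72 against experiment 1 and -2.33 against experiment 3. Against experiment 3 none of them was called higher and 31.8% were called lower. Genes of 500 to 1000 bases (1058) had medians of 0.40 and 0.55. Experiment 3 against 1 ran the other way and less far, from -0.07 at 500 to 1000 bases to 0.61 over 8000. With an offset for effective length the medians over 8000 bases were -1.52, -2.08 and 0.49 in the same order, with the same signs.

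**Figure D4:**
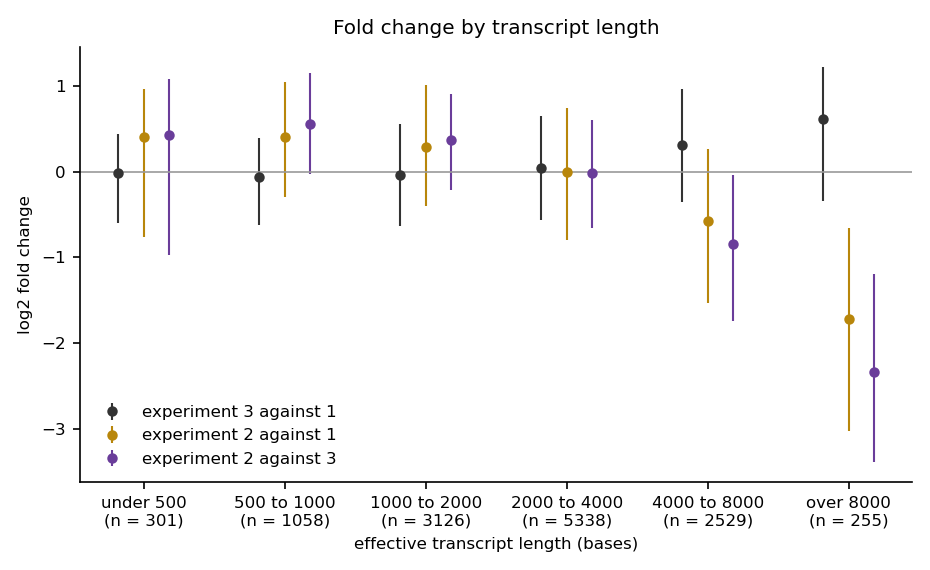
Log2 fold change (vertical axis) by effective transcript length in bases (horizontal axis, with the number of genes per bin) for the 3 comparisons; points are medians and bars span the 25th to 75th percentile of genes. Medians in both comparisons with experiment 2 fall from about 0.40 and 0.55 at 500 to 1000 bases to -1.72 and -2.33 over 8000.

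Long genes made up the list of collagens and basement membrane, whose median effective length was 6783 bases. Of its 18 genes 11 were called lower and 1 higher in experiment 2 against 1 (median -1.49), and the median of all genes in the length bins of its members was -0.58. Lama5, a laminin chain of vessel walls, had 74.3 and 85.3 TPM in experiment 1, 3.51 and 2.77 in experiment 2 and 19.1 and 16.2 in experiment 3 (-4.66 ± 0.13 for experiment 2 against 1). Among other long genes, Ahnak, a giant scaffold protein, had 408 and 420, 46.7 and 37.8, and 1002 and 821 TPM, and Dst, the linker dystonin, 109 and 152, 5.06 and 4.13, and 54.3 and 47.5 TPM. Tcf20, a transcriptional coregulator, was near 0 in experiment 2 alone, at 0.427 and 0.0933 TPM against 32.2 to 35.6 elsewhere (-7.48 ± 0.21 against experiment 1). Such genes were low in both wells of experiment 2. What the library making and the 150-cycle reads add to these values was not tested. Erg, an endothelial transcription factor, was likewise low in experiment 2 only (22.2 and 17.2 TPM against 153 to 250, -3.62 ± 0.14 against experiment 1).

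Replication-dependent histone genes and ribosomal protein genes, short transcripts, were lower in experiment 2. Histone messages of this class end in a stem-loop and carry no poly(A) tail. Of 58 histone genes tested 46 were called lower and 1 higher in experiment 2 against 1 (median -6.19) and 44 lower and 1 higher against experiment 3 (median -5.34). However, 47 of the 58 share at least 25% of their sequence words with other genes. Hist1h1a, which shares none, had 36.7 and 44.0 TPM in experiment 1, 0.424 and 0.130 in experiment 2 and 18.5 and 19.1 in experiment 3. Of 92 ribosomal protein genes 48 were called lower and 4 higher in experiment 2 against 1 (median -1.02), and of the 51 without near copies 24 lower and 2 higher. Between experiments 3 and 1 the ribosomal list had 5 higher and 4 lower (median 0.05).

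Among genes with their highest level in experiment 2, Rnase1, a secreted ribonuclease of ECs, had no count in experiment 1 and 9.63 and 11.2 TPM in experiment 2, at least 98.0-fold higher with 3 counts over both wells of experiment 1 as the limit, against 0.304 and 0.0834 TPM in experiment 3. Lrrc17, a leucine-rich repeat protein, had 12.6 and 12.0 TPM in experiment 2, 0.0527 and 0.0902 in experiment 1 and no count in experiment 3. Rarres1, a gene induced by retinoid, had 5.04 and 2.38, 38.7 and 37.1, and 0.696 and 1.0 TPM. All 3 were called higher in experiment 2 against both other experiments. Uqcrq, a subunit of respiratory complex III, was called higher in experiment 2 too, at 150 and 180, 1548 and 1772, and 542 and 578 TPM.

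The stabilized cultures gave a pair of the 2 isolation methods with 1 genotype on both sides, and shared no library with the WT pair, whose difference in method is uncertain as stated above. In stabilized replicates 3 and 4 against 1 and 2, 261 genes (2.07% of 12602) were called higher and 422 (3.35%) lower. Across 12376 genes tested in both, Pearson's r between the fold changes was 0.71, a description over genes that are not independent. Of the 1117 genes called higher in experiment 3, 995 (89.1%) had the same sign in the stabilized pair, 199 (17.8%) were called in the same direction and 2 in the opposite one. Of the 738 called lower, 707 (95.8%) had the same sign, 271 (36.7%) were called lower and 2 higher. Over all genes 73.4% had the same sign. The 199 and 271 genes made up 76.2% and 64.2% of the calls of the stabilized pair. The stabilized changes were smaller, with medians of 0.48 against 1.45 for the genes called higher and -0.78 against -1.49 for those called lower; the WT values chose these genes, so the difference of the medians is a description.

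**Figure D5:**
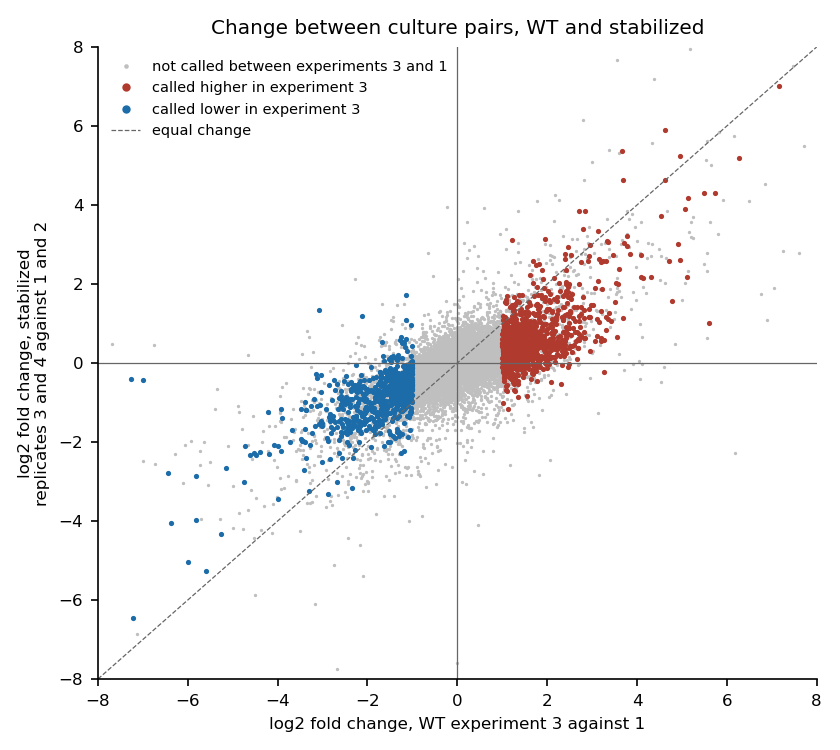
Log2 fold change of each gene for WT experiment 3 against 1 (horizontal axis) and for stabilized replicates 3 and 4 against 1 and 2 (vertical axis); red and blue points were called higher and lower in the WT pair, and 26 genes beyond 8 in size are not drawn. Of the red points 89.1% and of the blue points 95.8% lie in the quadrants of equal sign.

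Contractile genes were higher in stabilized replicates 3 and 4 too. Tagln had 531 and 592 TPM in stabilized replicates 1 and 2 and 5190 and 4856 in replicates 3 and 4 (3.39 ± 0.08), Acta2 264 and 320 against 1642 and 1553 (2.93 ± 0.09), and Cnn1 9.71 and 8.71 against 113 and 96.9 (3.85 ± 0.12). The difference from the WT change was called for Cnn1 (1.07 ± 0.24) and not for Tagln (0.66 ± 0.22) or Acta2 (0.54 ± 0.15). Fos and Fosb were lower in replicates 3 and 4 (-3.44 ± 0.11 and -5.26 ± 0.14), and so were Plat (-3.02 ± 0.10), Hey1 (-1.96 ± 0.11) and Vcam1 (-1.99 ± 0.09). Pecam1 was lower by -1.03 ± 0.06, Mmrn2 by -1.68 ± 0.07 and Cd34 by -1.48 ± 0.08. Of the interferon list 2 members were called lower, Rtp4 and Ifit3, which shares 60.6% of its sequence words with other genes. Gbp2 (-0.92 ± 0.06) and Bst2 (-0.87 ± 0.10) missed the fold limit, and their difference from the WT change was called (1.73 ± 0.10 and 1.03 ± 0.14). No mesenchymal gene other than the 3 contractile ones was called higher.

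Whether the change differed between the genotypes was tested as an interaction over the 8 culture libraries of 36 cycles. The stabilized change was higher than the WT change for 819 of 12903 genes (6.35%) and lower for 1170 (9.07%), and with library size scaling for 1089 and 926. Slco1a4 was among those that differed, lower in WT cultures as given above and at 76.7 and 66.5 against 57.2 and 55.2 TPM in the stabilized pair (-0.27 ± 0.07; interaction 2.94 ± 0.16, adjusted p = 2.10e-05). Mgp differed as well (interaction 2.37 ± 0.21). Stabilization, genotype and preparation cannot be told apart in this test, because the WT pair, by the Methods, also differs in genotype.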

How the data were processed

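RNA-seq of cultured brain ECs was analysed from the per-transcript files that the authors deposited: Salmon 0.14.0 estimated counts, not normalized, and TPM against the GENCODE M21 transcriptome (GRCm38). Transcripts were summed to genes. Genes on sex chromosomes and the mitochondrial genome were left out. The 6 WT culture libraries were fitted together in edgeR 4.0.16 (rounded estimated counts, filterByExpr, TMM, quasi-likelihood test, Benjamini-Hochberg adjustment over all tested genes), the 4 stabilized libraries in a fit of their own, and the interaction over the 8 libraries of 36 cycles. Well-to-well spread is the error of all tests. Sequence sharing was the percentage of a gene's 31-base words, of which 1 in 8 was sampled, found in other genes. Genes were named by size of change (12 in each direction for experiment 3 against 1, 5 in the comparisons with experiment 2), by recurrence in the stabilized pair, and from lists. Members and lists were chosen with earlier results of these data known. Alternatives were DESeq2 1.42.0, other scalings, filters, samples, a length offset and leaving out each replicate. Results for some single genes are not reported here.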

Additional observations from a re-analysis of the deposited data

Results flagged for a closer look

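The change of stabilized replicates 3 and 4 against 1 and 2 differed from that of WT experiment 3 against 1, by the test of that difference, for 819 genes in the higher direction (6.35% of those tested) and 1170 in the lower (9.07%). The genes below were named for the size or recurrence of their WT change, which is a term of the difference, so how many of them were called is no evidence. Below, the difference is the stabilized log2 change minus the WT log2 change, and each gene listed passed the test.

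Among genes higher in WT experiment 3 the difference was -1.03 for Nptx2, -1.37 for Mmp13, -1.12 for Sema3d, -2.29 for Slco4a1 and -2.05 for Aldh1a1. Their stabilized change was thus smaller. Among genes lower in WT experiment 3 it was 3.73 for Gpihbp1, 3.03 for C1qtnf9, 2.70 for Sema3g and 2.58 for Clec1a. It was 2.39 for Tubb3, 2.35 for Ushbp1, 2.32 for Wfdc1, 1.92 for Ednrb, 1.80 for Plat and 1.04 for Nxpe4. For these genes the decrease was smaller in the stabilized pair. Among genes that share sequence with others it was -13.95 for Gm10184, -12.44 for Eno1b, -4.53 for Rps16, 6.95 for Gm28048, 6.65 for Rps2 and 1.11 for Tpm3-rs7, and these values are uncertain.

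Outside the protein-coding genes, 2 annotated transcripts took a large share of the counts in experiment 1. CT010467.1 held 13.5% in replicate 1 and 3.24% in replicate 2, and at most 0.285% in the wells of experiments 2 and 3. AY036118 held 5.12% and 1.60% in the same replicates, and none in experiments 2 and 3.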

How the results depend on the processing

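No paired analysis was possible because the experiments share no replicate numbers, and in the stabilized cultures the numbers differ between the methods. Without the TPM minimum, experiment 3 against 1 gave 1998 genes higher and 1780 lower, experiment 2 against 1 2718 lower, experiment 2 against 3 2026 higher and 2649 lower, and the stabilized pair 666 higher and 1134 lower, since low genes then count. A test against a 2-fold change (glmTreat) left 778 higher and 515 lower in experiment 3 against 1. It left 1324 and 1086 in experiment 2 against 1, 885 and 1157 in experiment 2 against 3, and 172 and 260 in the stabilized pair. The median standard deviation between experiments was 0.502 on log2(TPM + 1). Over genes with a TPM of at least 1, r was 0.837 to 0.909 between experiments and 0.991 to 0.995 within them; on log2(CPM + 1) it was 0.998 within them (0.99776 to 0.998253). Leaving out 1 replicate gave 1020 to 1282 higher and 687 to 830 lower for experiment 3 against 1, 1658 to 1797 and 1324 to 1570 for 2 against 1, 1216 to 1372 and 1369 to 1505 for 2 against 3, 263 to 305 and 382 to 476 for the stabilized pair, and 664 to 868 and 849 to 1358 for the interaction. The lone well was then assumed to vary like the others. Of the values of named genes 4068 kept their call and direction, 38 lost it, 13 gained it and 1 reversed: Rps27, experiment 3 against experiment 1, was -0.70 without replicate 5, and its range over left-out replicates was -0.70 to 5.78. DESeq2 was not run for the test over all 3 experiments. The minimum on rescaled TPM (1447 higher and 1070 lower in experiment 3) and leaving out genes that share sequence (1043 and 658) were chosen after seeing the data. With libraries thinned to equal depth, experiment 3 against 1 gave 1084 higher and 772 lower.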
